A study of Mus musculus with 6 samples.

Results

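The BCL2 family decides whether a cell keeps or opens its outer mitochondrial membrane, and 10 of its genes were read in splenic naive B cells of mice with and without TET2, which oxidizes the methyl group of methylated cytosines in DNA. The members were taken by gene name, and all 10 were found among the 41053 gene names of the table. They comprise 4 pro-survival genes (Bcl2, Bcl2l1, Mcl1, Bcl2a1b) and 6 pro-death genes, of which 4 are BH3-only genes (Bcl2l11, Bmf, Bbc3, Pmaip1) and 2 are effectors (Bax, Bak1). The TET2 knockout and the TET2 wild type were each sequenced as 3 RNA libraries, which carry the numbers 2, 3 and 4. Both groups were naive B cells of the spleen from the C57BL/6 strain, and the labels name no treatment. The labels give neither the deleted part of the gene, nor how it was deleted, nor the sex and age of the mice, nor whether each library came from its own mouse. What the p-values measure is therefore library-to-library spread, and this can be technical.

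Pro-survival proteins of the family hold the effectors BAX and BAK in check at the mitochondrion. BH3-only proteins, which are induced or released by stress and by lost survival signals, bind the pro-survival proteins and free the effectors, which then form pores that let cytochrome c out and start the caspases. Resting B cells depend on this balance for their lifespan, and the pro-survival protein MCL1 is turned over within a short time, so its transcript has to be made continuously.

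Total counts per library ranged from 35101788 to 45401781. All 10 naive B cell markers in the table were above 1 CPM (counts relative to a TMM-normalized library size) in every library, with summed levels from 19600 to 24100 CPM. Summed markers of T cells reached 67.5 CPM at most, of macrophages and monocytes 32.3, of erythroid cells 21.4, of dendritic cells 6.09, of platelets 3.08, of NK cells 0.84 and of neutrophils 0.578 with Elane at 0. Genes that mark later B cell stages were higher, with summed plasma cell markers up to 444 CPM in the knockout libraries and 465 CPM in those of wild type, and germinal centre markers up to 194 and 200 CPM. Tet2 itself read 59.4, 64.8 and 50 CPM in knockout libraries 2, 3 and 4 and 74.7, 83.3 and 56.8 CPM in the wild-type libraries, with overlapping groups and a log2 difference of -0.30 (SE 0.14, edgeR adjusted p = 0.408). Since the counts cover all exons and the deleted part is not given, that level does not check the labels. The summed Y-linked level was 101 to 188 CPM in knockout and at most 0.227 CPM in wild type, while Xist, expressed from the inactive X of female cells, read 802 to 887 CPM in knockout and 1440 to 1540 CPM in wild type. Every knockout library thus held both kinds of transcript, and genotype and the sex of the source cells cannot be told apart in any comparison below. Whether the knockout libraries pooled cells of male and female mice was not tested. On the second principal component (31.5% of the variance) the libraries numbered 4 of both genotypes lay apart from the others.

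No member was called between the genotypes at an edgeR adjusted p under 0.05 (0 of 10), where 55 of 13604 tested genes (0.404%) were called. At an unadjusted p under 0.05 edgeR gave 1 of 10 members, Bak1, beside 13.4% of all genes tested. DESeq2 called 0 of 10 beside 2.57% of its tested genes, limma-voom called 0 of 10 beside 0.331%, and each put 2 members under an unadjusted p of 0.05. The knockout and wild-type libraries did not overlap for 1 of 10 members, again Bak1, beside 18.5% of all genes, so the members did not stand above the background on either count. The log2 difference, knockout minus wild type, ran from -0.37 in Bmf to 0.32 in Bak1, with 5 of 10 positive (4 when scaled by library size only, where Bcl2 turned to -0.01) and a median of 0.00, beside -0.01 over all genes. In bulk RNA a lower level from fewer cells of a type and one from less RNA per cell cannot be told apart.

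Between genes, levels were compared per length, as TPM (a count divided by the gene's summed exon length and scaled to the same total in each library). Mcl1 was the most abundant of the 10 members in every library, with a mean of 882 TPM over the 6 libraries and a range of 763 to 961. Bax followed at 226 TPM (196 to 253). Both ranges over the libraries were clear of the next gene in the order. The order depends on the exon length used, 869 bases for Bax and 9157 for Bcl2. In CPM, Bcl2 (mean 166 in knockout and 162 in wild type) lay above Bax (66.7 and 68.8). Bak1 (53.7 TPM), Bcl2 (51.9), Pmaip1 (48.1), Bmf (31.5) and Bcl2l11 (20.5) formed a middle group in which each gene's range over the libraries overlapped that of its neighbour. Below them, without overlap of neighbours, came Bcl2a1b (12.9), Bbc3 (4.65) and Bcl2l1 (3.15). As counted, Mcl1 was the main pro-survival transcript of these cells, and the transcript for BCL-XL was at the bottom of the order, in both genotypes. The place of Bcl2a1b is uncertain, because most of its sequence is shared with other genes and fragments from there may not have been counted, so its level may be above the one given and its order against Bcl2 is not settled.

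**Figure D1:**
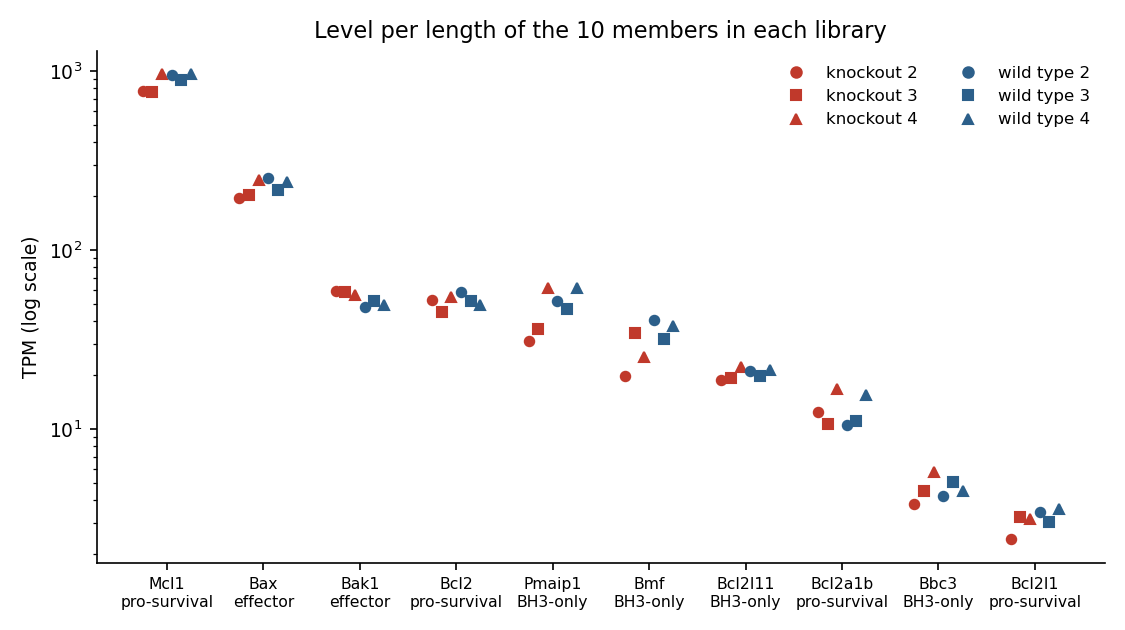
Level of the 10 BCL2 family members per length (TPM, log axis), 1 point per library, knockout and wild type in separate colours, ordered by the mean over the 6 libraries. Mcl1 lies between 763 and 961 TPM in all libraries and Bcl2l1 between 2.42 and 3.59.

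Among the pro-survival genes, Mcl1 (chromosome 3, 95658721 to 95663176, GRCm38) encodes the short-lived protector MCL1. Its level was 993, 936 and 1180 CPM in knockout libraries 2, 3 and 4 and 1050, 1030 and 1180 CPM in the wild-type libraries. The highest library of each genotype was number 4, and the groups overlapped. The knockout level was 0.955 times that of wild type, with a 95% interval of the ratio from 0.809 to 1.13 (log2 difference -0.07, SE 0.11, edgeR adjusted p = 0.818).

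Bcl2 (chromosome 1, 106538178 to 106714274), the founding member and a long-lived guard of the mitochondrial membrane, read 177, 146 and 177 CPM in knockout and 170, 158 and 160 CPM in wild type. The 3 wild-type libraries lay within the spread of the knockout libraries. The ratio was 1.02 (95% interval 0.892 to 1.17, edgeR adjusted p = 0.898).

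Bcl2l1 (chromosome 2, 152780668 to 152831728) encodes BCL-XL, the protector that activated B cells induce. It read 4.09, 5.25 and 5.10 CPM in knockout and 5.05, 4.62 and 5.8 CPM in wild type. Knockout library 2 was the lowest and wild-type library 4 the highest, with the other libraries mixed. The ratio was 0.935 (95% interval 0.723 to 1.21, edgeR adjusted p = 0.829).

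Bcl2a1b (chr9:89199209-89207827, plus strand, GRCm38) is one of the mouse copies of A1, a protector induced by NF-kB and by receptor signals in lymphocytes. Its level has to be read together with its copies, because their coding sequences are nearly the same. The first 120 coding bases of 3 copies, from the GENCODE vM21 transcripts on GRCm38, are shown 5′ to 3′ since most of the differences lie there. Capitals mark the positions at which the 3 copies are not all alike.
Bcl2a1a: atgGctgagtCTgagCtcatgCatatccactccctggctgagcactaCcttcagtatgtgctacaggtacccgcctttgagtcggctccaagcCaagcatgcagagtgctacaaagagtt
Bcl2a1b: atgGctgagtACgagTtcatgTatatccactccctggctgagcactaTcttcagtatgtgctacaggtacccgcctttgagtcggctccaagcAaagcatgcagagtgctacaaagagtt
Bcl2a1d: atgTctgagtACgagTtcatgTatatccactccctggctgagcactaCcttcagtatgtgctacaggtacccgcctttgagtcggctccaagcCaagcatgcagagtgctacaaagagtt
Of the 12 coding positions that differ among the 3 copies, 7 lie in this stretch. Over all 516 coding bases, Bcl2a1b differed from Bcl2a1d at 6 positions (98.8% identity) and from Bcl2a1a at 11 (97.9%).

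Of the windows of 50 bases along the Bcl2a1b transcripts, 79.2% also occur in transcripts of another gene, most often Bcl2a1d. The counting command, per the file headers, sets no option to include fragments that align to several places, so fragments shared by the copies may be missing from the counts and the split among copies is uncertain. Separately, 401 of the 817 exon bases of Bcl2a1b overlap exons of RP23-121I20.3, a gene annotated on the same strand. That gene had 0 counts over all libraries, and fragments from the shared bases may also be missing. As deposited, Bcl2a1b read 3.75, 3.08 and 4.85 CPM in knockout and 2.76, 3.02 and 4.45 CPM in wild type. Number 4 was the highest library of each genotype and the groups overlapped. The ratio was 1.14 with a wide 95% interval of 0.787 to 1.66 (edgeR adjusted p = 0.753). Bcl2a1d read 1.86, 1.73 and 2.88 CPM in knockout and 1.61, 1.39 and 2.23 CPM in wild type, with the same library highest in each genotype (ratio 1.24, 95% interval 0.815 to 1.90, edgeR adjusted p = 0.641). Bcl2a1a had 2 counts and Bcl2a1c 46 counts over all 6 libraries, too few to be tested.

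The BH3-only gene Bcl2l11 (chromosome 2, 128126038 to 128162547) encodes BIM, which removes autoreactive and cytokine-deprived lymphocytes. It read 55.7, 54.8 and 63.4 CPM in knockout and 54.0, 53.3 and 60.3 CPM in wild type. Library 4 was the highest of each genotype, and libraries 2 and 3 of both genotypes lay within 53.3 to 55.7 CPM. The ratio was 1.04 (95% interval 0.904 to 1.19, edgeR adjusted p = 0.823).

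Bmf (chromosome 2, 118528757 to 118549687), a BH3-only gene for a protein held at the cytoskeleton and known to limit B cell numbers, had the most negative difference of the 10 members. Its level was 38.3, 63.8 and 46.8 CPM in knockout (49.7 ± 13, mean ± SD, n = 3) and 67.7, 55.6 and 69.5 CPM in wild type (64.3 ± 7.57, n = 3). Knockout libraries 2 and 4 lay below all wild-type libraries, while knockout library 3 lay above wild-type library 3, so the groups overlapped. The log2 difference was -0.37 (SE 0.17, edgeR adjusted p = 0.391), a ratio of 0.773 with a 95% interval from 0.592 to 1.01. Leaving out knockout library 3 gave -0.59 and leaving out knockout library 2 gave -0.22, and in none of the 16 other settings did Bmf pass the threshold (edgeR, DESeq2 or limma-voom adjusted p from 0.241 to 0.836).

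Bbc3 (chromosome 7, 16309616 to 16318205) encodes PUMA, a BH3-only target of p53. It was scarce, at 2.82, 3.18 and 4.09 CPM in knockout and 2.72, 3.39 and 3.20 CPM in wild type. Knockout library 4 stood highest and the other libraries were mixed between genotypes (ratio 1.08, 95% interval 0.799 to 1.47, edgeR adjusted p = 0.829).

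Pmaip1 encodes NOXA, a BH3-only protein that binds MCL1 and is transcribed in response to p53 and to stress signals. It read 30.2, 33.9 and 57.7 CPM in knockout (40.6 ± 14.9, mean ± SD, n = 3) and 43.7, 41.2 and 56.9 CPM in wild type (47.3 ± 8.44, n = 3). The libraries numbered 4 were the highest of each genotype and near each other, and knockout libraries 2 and 3 were the lowest of all. Library 4 exceeded libraries 2 and 3 by 0.85 log2 units in knockout and by 0.42 in wild type. With all libraries the log2 difference between genotypes was -0.22 (SE 0.24, edgeR adjusted p = 0.716), a ratio of 0.859 with a 95% interval from 0.591 to 1.25. Libraries 2 and 3 alone gave -0.40 with an edgeR adjusted p of 0.00154, where 24% of all genes were called, and the log2 difference between the libraries numbered 4 was 0.02.

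A list of 19 genes that respond to cell handling, made up of early-response genes such as Fos, Jun and Egr1, heat-shock genes such as Hspa1a, and the cold-inducible Cirbp, was summed in each library beside these values. The sum was 1850, 1810 and 4430 CPM in knockout and 3430, 3240 and 4090 CPM in wild type. Of the 19 genes 0 were called (edgeR), with 1 under an unadjusted p of 0.05, beside 13.4% of all genes. In each genotype library 4 had the highest sum and the highest Pmaip1 level, and knockout libraries 2 and 3 were the lowest 2 of the 6 in both. The same was true of Mcl1. Its smallest values, 993 and 936 CPM, came from knockout libraries 2 and 3, and its largest, 1180 CPM, from library 4 of each genotype. Bax also peaked in library 4 of each genotype, but its wild-type library 3 (62.4 CPM) lay below knockout library 2 (62.6 CPM). Library 4 was the highest of both genotypes for 13 of the 19 genes and for 5 of the 10 members, beside 3163 of all 13604 genes tested. Cirbp ran the other way, at 200, 210 and 125 CPM in knockout and 251, 231 and 129 CPM in wild type. So did Egr3, at 66, 57.2 and 46.2 CPM and at 61.4, 64 and 40.9 CPM. Egr1 was lowest in wild-type library 4 (48.1 CPM). The sum thus mixes patterns: Fosb was lowest in knockout libraries 2 and 3 (77.4 CPM each, against 306 to 391). Hsph1 was highest in the libraries numbered 4 (216 and 215 CPM, against 53.9 to 77.5). For Bmf, knockout libraries 2 and 3, with nearly equal sums, read 38.3 and 63.8 CPM. For Bak1, the 2 libraries with the lowest sums had the 2 highest levels (52.4 and 49.3 CPM), and knockout library 4, with the highest sum, had the lowest level of its genotype (47.9 CPM). The part of handling in these levels was not tested.

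**Figure D2:**
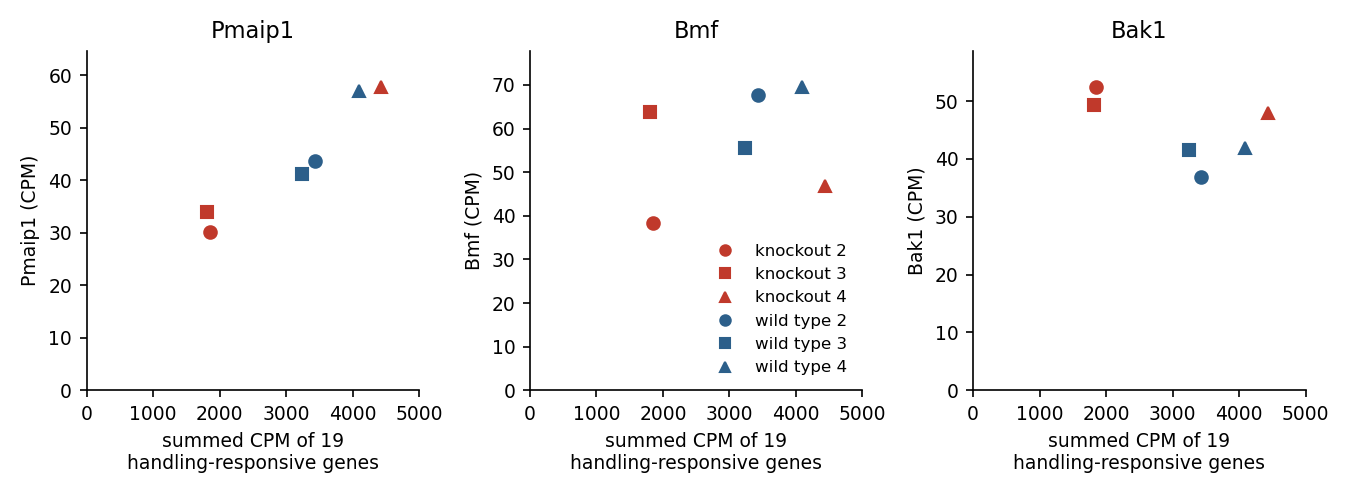
Level of Pmaip1, Bmf and Bak1 (CPM, y axis) against the summed level of 19 handling-responsive genes (CPM, x axis), 1 point per library, with colour for genotype and shape for library number. Pmaip1 is lowest in the libraries with sums of 1810 and 1850 CPM and highest in those with 4090 and 4430. So is Mcl1, which is not drawn here.

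Bax (chromosome 7, 45461695 to 45466898) encodes a pore-forming effector that waits in the cytosol. Its level was 62.6, 61.9 and 75.7 CPM in knockout and 70.0, 62.4 and 73.9 CPM in wild type. Number 4 was highest in each genotype, and the groups overlapped. The ratio was 0.970 (95% interval 0.827 to 1.14, edgeR adjusted p = 0.883).

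Bak1 (chr17:27019810-27029009, minus strand, GRCm38) encodes the other effector, which sits in the outer mitochondrial membrane and is held by MCL1 and BCL-XL. It read 52.4, 49.3 and 47.9 CPM in knockout (49.8 ± 2.32, mean ± SD, n = 3) and 36.8, 41.6 and 41.8 CPM in wild type (40.0 ± 2.85, n = 3). Every knockout library lay above every wild-type library. The log2 difference was 0.32 (SE 0.08), a ratio of 1.24 with a 95% interval from 1.09 to 1.42, and it did not pass the threshold over all genes (edgeR adjusted p = 0.189). Within libraries 2 and 3 the log2 difference was 0.38, and between the libraries numbered 4 it was 0.20.

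Of the 16 other settings, 3 called Bak1 higher in knockout. With a term for the libraries numbered 4 the edgeR adjusted p was 0.0393, and Bak1 was then the 1 member of 10 called, beside 4.4% of all genes. Without wild-type library 4 it was 0.0464, beside 6.47% of all genes, and with libraries 2 and 3 alone it was 0.00208, beside the 24% given above. DESeq2 gave an adjusted p of 0.0594, and the other 12 settings gave 0.101 to 0.722, the highest without knockout library 2. The log2 difference stayed between 0.26 and 0.38 in all 16.

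Part of the Bak1 locus is shared with a gene on the other strand. Of the 2407 exon bases counted for Bak1, 357 (14.8%) overlap exons of Ggnbp1 on the opposite strand, and the counting used no strand, per the file headers, so fragments from these bases cannot be assigned to either gene. Ggnbp1 read 4.75, 5.97 and 4.35 CPM in knockout and 6.41, 6.87 and 5.31 CPM in wild type, with a mean lower in knockout where that of Bak1 was higher (log2 difference -0.30, SE 0.17, edgeR adjusted p = 0.473). Its total of 1400 counts compares with 11163 for Bak1.

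**Figure D3:**
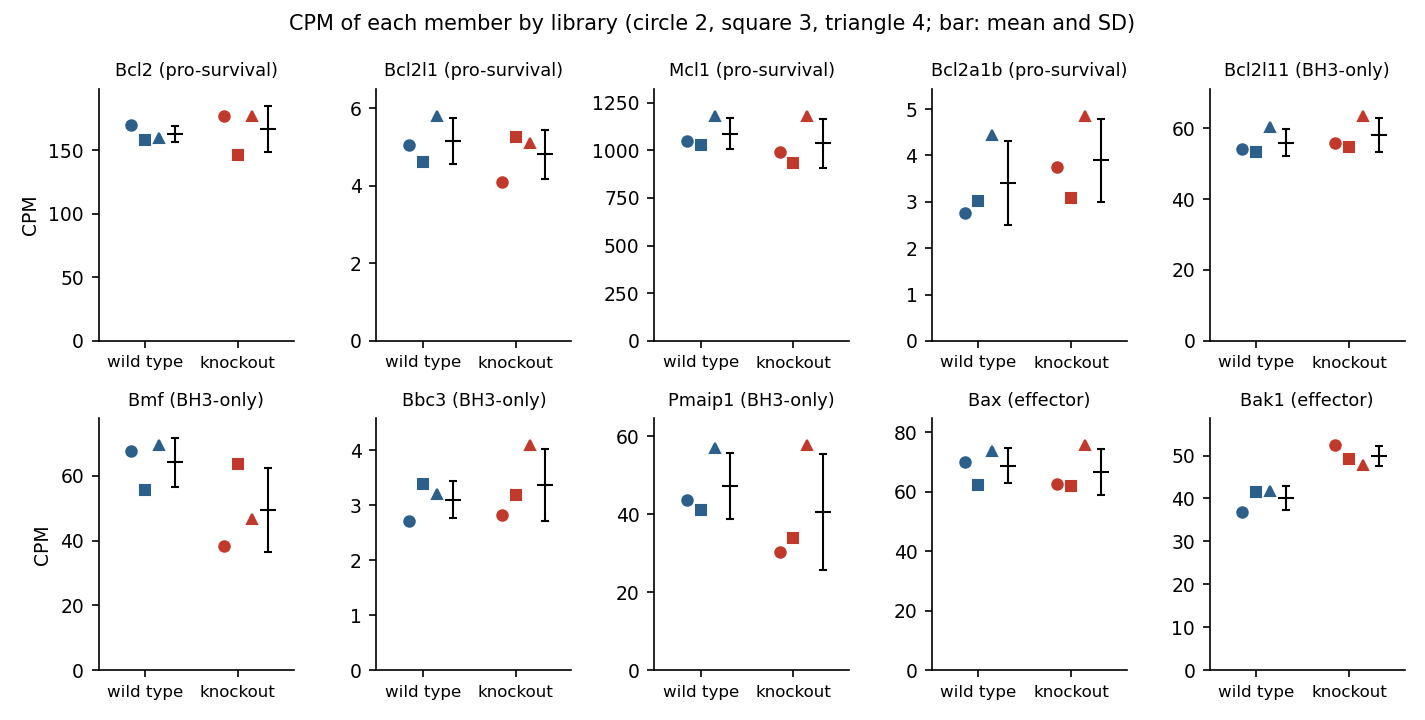
Level of each of the 10 members by library (CPM, each y axis from 0), wild type on the left and knockout on the right of each panel, with the mean and SD of 3 libraries as a bar. Only in the Bak1 panel do the genotypes not overlap, with 47.9 to 52.4 CPM in knockout and 36.8 to 41.8 in wild type.

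The members were also summed per length in each library by role. The pro-survival sum was 841, 822 and 1040 TPM in knockout libraries 2, 3 and 4 and 1020, 956 and 1030 TPM in the wild-type libraries. The pro-death sum was 328, 355 and 417 TPM in knockout and 419, 370 and 415 TPM in wild type. Since TPM also depends on the lengths of all other transcripts in a library, the sums are set against each other within a library. Their ratio was 2.56, 2.32 and 2.48 in knockout (2.45 ± 0.126, mean ± SD, n = 3) and 2.42, 2.58 and 2.48 in wild type (2.49 ± 0.0797, n = 3). The difference of the ratio between genotypes was smaller than the spread between libraries of either genotype. Its direction depended on how it was formed: the log2 difference was -0.03, against 0.15 without Bax and Bak1, 0.09 without Mcl1 and 0.05 as a mean of log2 levels, with a between-library SD of 0.06 for the main form.

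As counted, with the same limit for Bcl2a1b, Mcl1 made up 92.0% to 93.3% of the pro-survival sum and Bcl2 4.82% to 6.24%, so the ratio is in large part that of Mcl1 to the pro-death genes. Without Mcl1 it was 0.166 to 0.205 in knockout and 0.165 to 0.178 in wild type. On the pro-death side Bax and Bak1 together gave 70.0% to 77.6% of the sum. These are sums of RNA and carry no information on protein levels or binding.

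**Figure D4:**
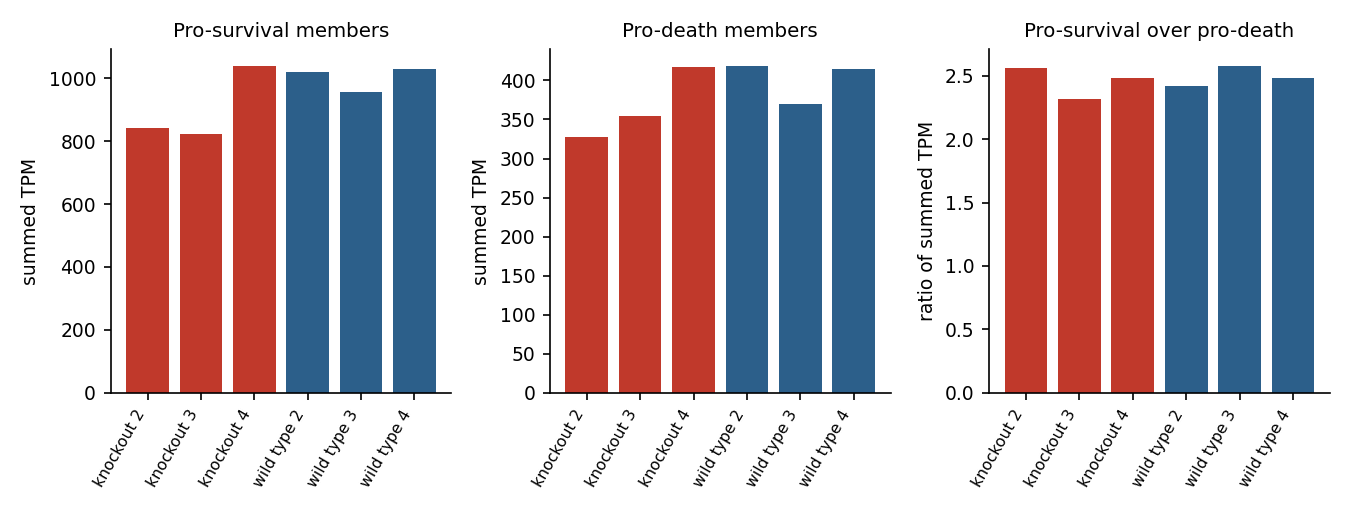
Summed level of the pro-survival and pro-death members and their ratio by library (TPM, and ratio without unit), wild type and knockout. The ratio lies between 2.32 and 2.58 in all 6 libraries, with overlapping genotypes.

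Proportions were also formed within the pro-death genes. The Bax to Bak1 ratio of TPM was 3.31, 3.48 and 4.38 in knockout (3.72 ± 0.575, mean ± SD, n = 3) and 5.28, 4.16 and 4.90 in wild type (4.78 ± 0.570, n = 3), and the groups overlapped in knockout library 4 and wild-type library 3. The Bmf to Bcl2l11 ratio was 1.05, 1.78 and 1.13 in knockout and 1.92, 1.59 and 1.76 in wild type, with knockout library 3 among the wild-type values. Neither ratio was tested, as both are scores over members.

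The rest of the family was looked up by name, and 10 of the 16 further genes found passed the filter on low counts. All 3 tools (edgeR, DESeq2, limma-voom) called 0 of these 10 genes. In edgeR 1 of the 10 lay under an unadjusted p of 0.05, beside 13.4% of all genes. The median log2 difference of the 10 was 0.11, beside -0.01 over all genes. Knockout and wild-type libraries did not overlap for 3 of the 10, beside 18.5% of all genes. Bid, whose protein carries death-receptor signals to the mitochondrion, had 75.0 to 84.3 CPM in the knockout libraries and 73.4 to 88.1 CPM in the wild-type libraries. Of its 3550 exon bases, 628 overlap Bcl2l13 on the opposite strand. Bad, for a BH3-only protein silenced by growth-factor kinases, read 15.9, 13.4 and 14.3 CPM in knockout and 10.7, 11.9 and 13 in wild type. Its groups did not overlap, and the log2 difference was 0.29 (SE 0.12, edgeR adjusted p = 0.348). Of its 2007 exon bases, 517 overlap Gpr137 on the opposite strand.

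Bcl2l12, for a family-related protein of the cytosol and nucleus, was the one further gene with every knockout library below wild type, at 15.9, 16.1 and 16 CPM against 19.1, 17.5 and 17.8 (log2 difference -0.18, SE 0.09, edgeR adjusted p = 0.432). Of its 1976 exon bases, 572 overlap Gm15545 and 88 overlap Irf3, both on the opposite strand. Irf3 had 42732 counts over all libraries, against 4236 for Bcl2l12. Bcl2l15 was near the filter, with 0.337 to 0.455 CPM in knockout libraries and 0.200 to 0.317 CPM in wild-type libraries (log2 difference 0.71, SE 0.35, edgeR adjusted p = 0.419). For the protector Bcl2l2, for Bcl2l13, Bcl2l14 and for the mitophagy receptors Bnip3 and Bnip3l the log2 differences were 0.06, 0.08, 0.57, 0.05 and 0.13, with overlapping groups (edgeR adjusted p from 0.564 to 0.935). The BH3-only genes Bik and Hrk had 7 and 4 counts over all libraries, the effector Bok had 1 and the protector Bcl2l10 had 0. A count of 0 in a library allows up to 3 counts, which is 0.0679 to 0.0857 CPM, for counting error only.

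**Figure D5:**
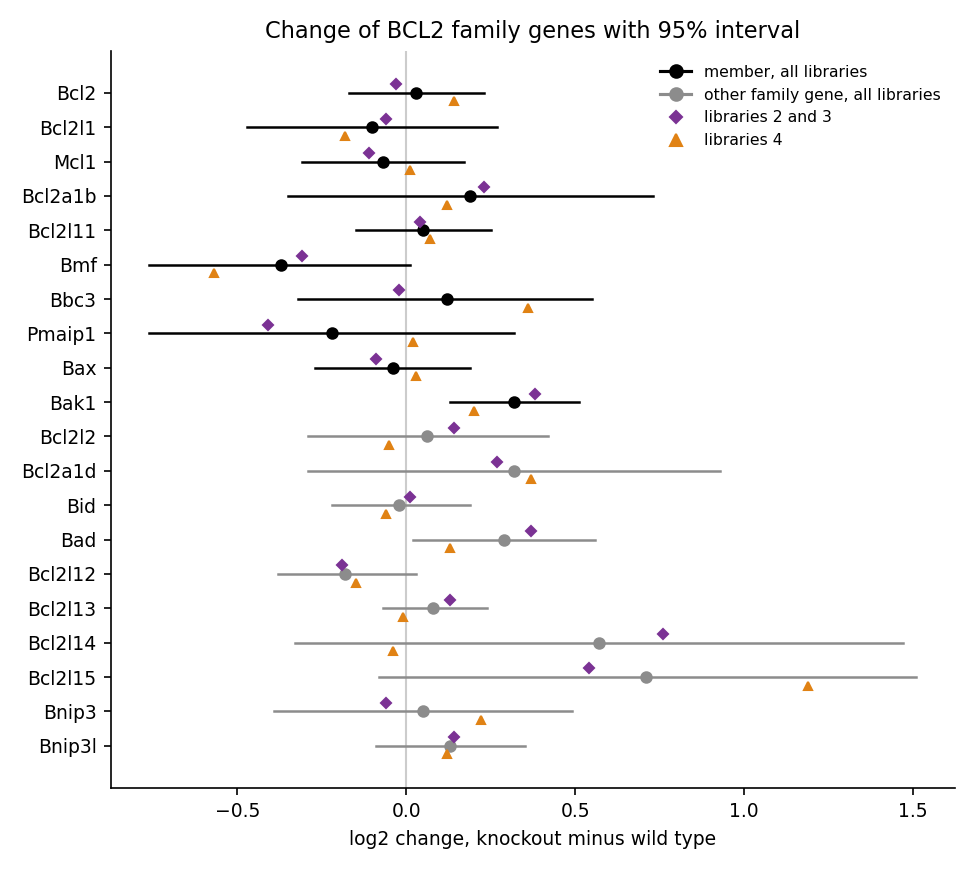
Log2 difference, knockout minus wild type, of the 20 tested family genes with the 95% interval from all 6 libraries (circles), and the differences of the mean log2 CPM within libraries 2 and 3 (diamonds) and of the log2 CPM between the libraries numbered 4 (triangles). The intervals of Bak1 (0.13 to 0.51) and Bad (0.02 to 0.56) lie above 0 before adjustment.

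Genes upstream and downstream of the family were read from 7 lists of 86 genes, of which 80 were tested. Of these, 1 was called higher and 0 lower in knockout (edgeR), beside 0.404% of all genes called. An unadjusted p under 0.05 was found for 14 (17.5%), beside 13.4% of all genes, and the median log2 difference was 0.05. That 13.4%, and the median of -0.01 over all genes, apply to each list below. Over the 90 tested pathway and further family genes together, DESeq2 called 5, beside 2.57% of all genes, and limma-voom 1, beside 0.331%. Slc25a4, an ADP/ATP carrier of the inner mitochondrial membrane, rose. It read 94.8, 90.3 and 91.7 CPM in knockout and 68.2, 64.4 and 67.5 CPM in wild type. The groups did not overlap, as was so for 18.5% of all genes. The log2 difference was 0.47 (SE 0.07, edgeR adjusted p = 0.0271), and leaving out knockout library 2 or 3 or wild-type library 2 or 3 each ended the call, with log2 differences of 0.45, 0.48, 0.48 and 0.44 and edgeR adjusted p of 0.201, 0.114, 0.118 and 0.172.

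In the list of pore and release proteins, which holds Slc25a4 and the genes for VDAC channels, cytochrome c and SMAC, 3 of 13 genes had an unadjusted p under 0.05, with a median of 0.10. The apoptosome and caspase list had 0 of 10 under that p and a median of 0.04. Its 2 smallest p were those of Casp2, an initiator caspase, with 135 ± 2.61 CPM in knockout libraries and 146 ± 6.45 CPM in wild-type libraries (mean ± SD, n = 3; edgeR adjusted p = 0.466), and of the caspase substrate Parp1, with 539 ± 24.9 and 493 ± 26.8 CPM (edgeR adjusted p = 0.493).

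Caspase inhibitors and their relatives had 4 of 8 genes under an unadjusted p of 0.05, beside 13.4% of all genes, and a median of 0.22, with 0 called (edgeR). The 4 were Naip2, Naip5 and Naip6, higher in knockout, and Birc6, lower (log2 difference -0.24). The rest of the list, Xiap, Birc2, Birc3 and Birc5, differed by 0.01, -0.04, 0.01 and 0.66. Naip2 and Naip5, which carry inhibitor-type repeats but are known as sensors of bacterial proteins, led the list. Naip2 read 18.6, 19.3 and 20.2 CPM in knockout and 13.5, 11.4 and 14.7 in wild type (log2 difference 0.55, SE 0.11, edgeR adjusted p = 0.114). Naip5 read 31.7, 32.1 and 26.5 CPM against 22.6, 24.3 and 19.6 (log2 difference 0.44, SE 0.11, edgeR adjusted p = 0.176). Neither gene's groups overlapped, as was so for 18.5% of all genes. Neither passed with edgeR, while both passed with DESeq2 (adjusted p = 0.00221 and 0.0321), which called 2.57% of all genes. DESeq2 also called Birc6, a large inhibitor named here after its values were seen, lower in knockout. The Naip genes are close copies of each other in the mouse, so their counts may be split among them. The 4 of 8 is therefore not a count of independent genes. The list was also chosen with earlier results of these data known, so its share is a description only.

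The death receptor arm had 0 of 8 tested genes under an unadjusted p of 0.05 and a median of 0.18. There the adaptor Fadd differed by 0.25 (SE 0.11, edgeR adjusted p = 0.385) and the kinase Ripk1 by 0.17 (SE 0.08, edgeR adjusted p = 0.421), with overlapping groups. Among the genes that set the members' transcripts, 2 of 16 were under that p, with a median of -0.04. Zfp36l1, an RNA-binding protein that promotes mRNA decay, read 317, 316 and 377 CPM in knockout and 458, 435 and 417 in wild type (log2 difference -0.37, SE 0.09, edgeR adjusted p = 0.154, DESeq2 adjusted p = 0.0154). Stat3, a cytokine-activated transcription factor, differed by 0.27 (SE 0.09, edgeR adjusted p = 0.267).

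Targets of p53 other than Bbc3 and Pmaip1 gave 1 of 11 tested genes under that p and a median of 0.04. Ei24 read 63.1 to 65.0 CPM in knockout and 54.1 to 56.6 in wild type (edgeR adjusted p = 0.272), and Ccng1, a p53-induced cyclin, 115 to 136 and 92.8 to 130 CPM (edgeR adjusted p = 0.452). Genes for the turnover and sequestration of members had 4 of 14 under that p and a median of 0.05. The survival kinase Pim2 read 34.4 to 47.3 CPM in knockout and 28.6 to 31.9 in wild type (edgeR adjusted p = 0.219), and Ywhae, a 14-3-3 protein of the kind that holds BAD, 246 to 273 and 200 to 240 CPM (edgeR adjusted p = 0.295).

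TET2 acts on methylated CpG sites, so the CG count of the 250 bases before the start of each member was read from RefSeq (GRCm38.p6), for 9 of 10 members. It was 36 in Bcl2, 27 in Bbc3, 26 in Mcl1, 24 in Bcl2l11, 14 in Bax, 12 in Bcl2l1, 8 in Bmf and Bak1 and 4 in Bcl2a1b. Over all 32851 windows of the same length the median was 6, and 92.1% held at least 1 CG. Of the 9 members, all but Bcl2a1b were above that median. The start that RefSeq gives for Bak1 lies 382 bases inside the gene as counted here, so its window lies within the counted gene, and genes such as Bmf with 3 starts in RefSeq were read at 1 of them. Methylation was not measured in these libraries, and the counts describe the sequence only.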

How the data were processed

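For 3 libraries per genotype, the authors deposited raw counts of fragments summed over each gene name. Counting used featureCounts 1.5.1 on GENCODE vM3 exons, with neither a strand nor a multi-mapping option, per the file headers. STAR 2.3.0e and GRCm38.p3 are named in the submitters' processing notes, and a stranded kit in the labels' protocols. The table held 6 more count columns that match no sample used here and were left out.

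Genotypes were compared over all 13604 genes that passed filterByExpr (minimum count 10) with edgeR's quasi-likelihood F test (TMM, robust, no covariate, two-sided), Benjamini-Hochberg adjustment over all genes, and calls at an adjusted p under 0.05, in edgeR 4.0.16 under R 4.3.3. The fit was tested on simulated counts, and no library duplicated another. CPM used TMM library sizes, and TPM used the deposited exon length. Named genes are Tet2, the 10 members, each further family gene tested, and in each pathway list the genes called or else the 2 with the smallest p. Ggnbp1 and other genes that overlap a family gene, Bcl2a1a and the untested genes were named as overlaps, copies or low counts. The rest of the caspase inhibitor list, Egr3, Fosb and Hsph1 were named after their values were seen. The members and all lists were chosen with earlier results of these data known. Alternatives were other normalizations and filters, DESeq2 1.42.0, limma-voom 3.58.1, a replicate block, a term for or removal of the libraries numbered 4, each library left out, and for the summed ratio CPM, mean log2 levels and each member left out.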

Additional observations from a re-analysis of the deposited data

How the results depend on the processing

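Over 16 other settings the count of called members was 0 of 10 except 1 (Bak1) with a term for the libraries numbered 4, 2 (Bak1, Pmaip1) with libraries numbered 2 and 3 alone, and 0 to 1 on leaving out each library. For the further family and pathway genes the count of 1 of 90 became 5 of 100 without a filter beyond 1 count. Of 90 it became 5 with DESeq2, 2 with the replicate block, 8 with the term and 31 with libraries 2 and 3 alone. On leaving out each library it was 0 to 6 of 90 or 91. Over all genes the count of 55 of 13604 (0.404%) became 262 of 23019 without that filter. It became 349 (2.57%) with DESeq2, 85 with the replicate block, 599 (4.4%) with the term and 3307 of 13800 (24%) with libraries 2 and 3 alone. On leaving out each library it was 17 to 900 (17 of 13846 without knockout library 2, 900 of 13901 or 6.47% without wild-type library 4). Tet2 passed with the term (-0.29, edgeR adjusted p = 0.0420) and with libraries 2 and 3 alone (-0.35, edgeR adjusted p = 0.00227) and without wild-type library 4 (-0.44, edgeR adjusted p = 0.0464), and lay between -0.44 and -0.19 on leaving out each library. The cause of these shifts was not tested.

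Differences near 0 changed sign, none of them called: Bcl2 with library size only (-0.01) and libraries 2 and 3 alone (-0.02), Bbc3 (-0.03), Bid (0.01) and Bnip3 (-0.06) with libraries 2 and 3 alone. On leaving out each library the range crossed or reached 0 for Bcl2 (-0.01 to 0.12), Bcl2l1 (-0.18 to 0.01), Mcl1 (-0.17 to 0.00), Bcl2l11 (-0.02 to 0.11), Bbc3 (-0.05 to 0.23), Bax (-0.14 to 0.01), Bcl2l2 (-0.08 to 0.19), Bid (-0.07 to 0.07) and Bnip3 (-0.15 to 0.17). The log2 ratio of the summed levels, -0.03 between genotypes, became 0.15 without Bax and Bak1, 0.09 without Mcl1 and 0.05 as a mean of log2 levels. The SD between libraries of 0.06 is that of the main form only, so the other forms cannot be judged against it.

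The labels do not say that a number pairs libraries, so the main fit had no block. The deviations of same-numbered libraries from their genotype means correlated at 0.09, 0.22 and 0.39 for numbers 2, 3 and 4, which does not settle whether they pair. The replicate block moved no member across the threshold, while calls over all genes went from 55 to 85.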
